A study of Mus musculus with 12 samples.

Results

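A set of 9 genes of programmed cell death was followed in mouse liver: Bax, Bcl2l1, Mcl1, Bcl2l11, Bbc3, Fas, Casp8, Mlkl and Gsdmd. They were taken by symbol from 56065 genes listed for each of 12 libraries, and all 9 were found and had enough reads to be tested. All libraries came from livers of AhR-floxed mice labelled male, 8 weeks old when the diets began, and the labels name no Cre. CD is a control diet with 10 kcal% fat and matched sucrose, fed for 20 weeks. The labels describe no injection for CD. MD is a diet with 2% cholesterol, 40 kcal% from fat and 20 kcal% from fructose, fed for 20 weeks with vehicle (0.2% DMSO in saline) injected into the peritoneum on 3 days a week. MD+CA is the same diet and schedule with cinnabarinic acid at 12 mg/kg in 0.2% DMSO. Cinnabarinic acid is a product of tryptophan breakdown that binds the aryl hydrocarbon receptor (AhR), and the diet is a model of fatty liver inflammation (steatohepatitis). There were 4 libraries per group. No label says that each library came from its own mouse, so the p-values measure the spread between these libraries.

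Apoptosis is run by caspases. In the mitochondrial route, BH3-only proteins of the BCL2 family release or activate pore formers such as BAX, while guardians such as BCL-xL and MCL1 hold them back. In the receptor route, FAS and its relatives recruit caspase-8. Hepatocytes carry FAS and depend on MCL1 and BCL-xL for survival. When caspase-8 is blocked, the kinase RIPK1 can activate the kinase RIPK3, which phosphorylates MLKL. MLKL then breaks the plasma membrane in necroptosis. In pyroptosis, inflammatory caspases cut gasdermin D, which then forms pores. Most of these proteins are switched on by cleavage, phosphorylation or binding, so the RNA level of a gene is not a measure of cell death.

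Each library held 9089586 to 14492587 reads assigned to transcripts. The label of sex did not match the reads, since Xist had 5122 to 12865 reads in each of the 12 libraries and Ddx3y, Kdm5d, Uty and Eif2s3y had 0 in all of them. The liver label was borne out by hepatocyte markers such as Alb, which stood at 16610 to 45525 CPM (gene counts relative to library size, scaled with edgeR's TMM factors). MD replicate 2 stood apart by a mitochondrial share of 17.5% of reads, against 4.97 to 10.7% in the other 11 libraries. MD+CA replicate 2 stood apart by a summed level of interferon-stimulated genes of 2237 CPM, against 819 to 929 CPM in the rest of its group. The sources used here do not give the time of day or feeding state at collection. In bulk liver RNA, fewer cells of a type and less RNA per cell cannot be told apart.

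None of the 9 genes passed an adjusted p of 0.05 in any comparison (edgeR's quasi-likelihood test, Benjamini-Hochberg over 13631 genes). In MD vs CD, 0 of 9 passed, where 0.088% of all genes tested did, and 0 of 9 had an unadjusted p under 0.05, where 19.9% of all genes did. In CPM the CD and MD libraries overlapped for all 9, and were apart for 13.1% of all genes. In deposited TPM, which allow for transcript length, MD lay below CD without overlap for Bbc3, Bcl2l11 and Casp8. The ranges in MD and CD were 3.97 to 7.63 and 8.63 to 12.2 TPM for Bbc3, and 1.52 to 2.84 and 2.91 to 4.10 TPM for Bcl2l11. For Casp8 they nearly met, at 11.9 to 18.1 and 18.2 to 21.6 TPM. The share of all genes apart in TPM was not counted. DESeq2 and limma voom also called 0 of the 9 in MD vs CD, where they called 4.81% and 2.74% of all genes. Of the 9, 0 passed in MD+CA vs MD against 2.71% of all genes. At an unadjusted p under 0.05 there were 3 with higher values, Mlkl, Fas and Bbc3, and 1 with a lower value, Bcl2l11, where 11.6% of all genes lay in each direction. DESeq2 called 2 of the 9, Fas and Mlkl, against 9.29% of all genes, and limma voom called 0 against 2.99%. Likewise 0 of 9 passed in MD+CA vs CD against 0.528% of all genes. At an unadjusted p under 0.05 there were 2 higher, Mlkl and Fas, against 6.16% of all genes, and 1 lower, Bcl2l11, against 4.37%. DESeq2 called Bcl2l11 and Mlkl there, against 2.46% of all genes, and limma voom called Mlkl, against 1.4%. The median log2 fold change of the 9 genes was -0.083 in MD vs CD, 0.21 in MD+CA vs MD and 0.065 in MD+CA vs CD. The medians over all genes tested were 0.043, -0.0035 and 0.016. Each comparison shares a group of libraries with each other one, so the 3 sets of values are not independent.

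**Figure D1:**
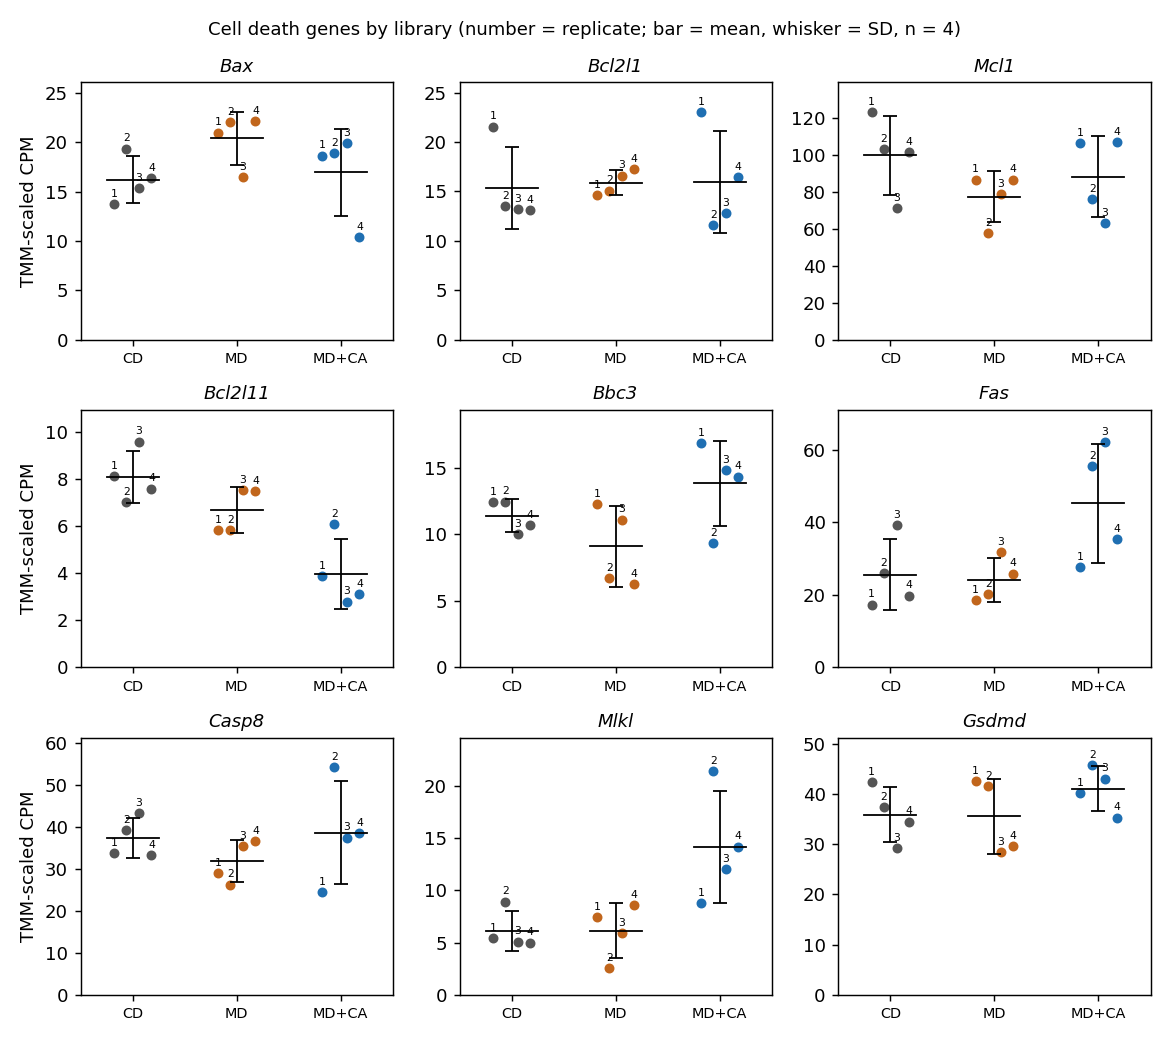
TMM-scaled CPM (vertical axis, from 0, a separate scale for each gene) of the 9 genes in CD, MD and MD+CA. Each point is 1 library numbered by replicate, the long bar is the mean and the whiskers are 1 SD (n = 4). The 4 MD+CA libraries lie above all MD libraries only for Mlkl, and below all CD libraries only for Bcl2l11.

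**Figure D2:**
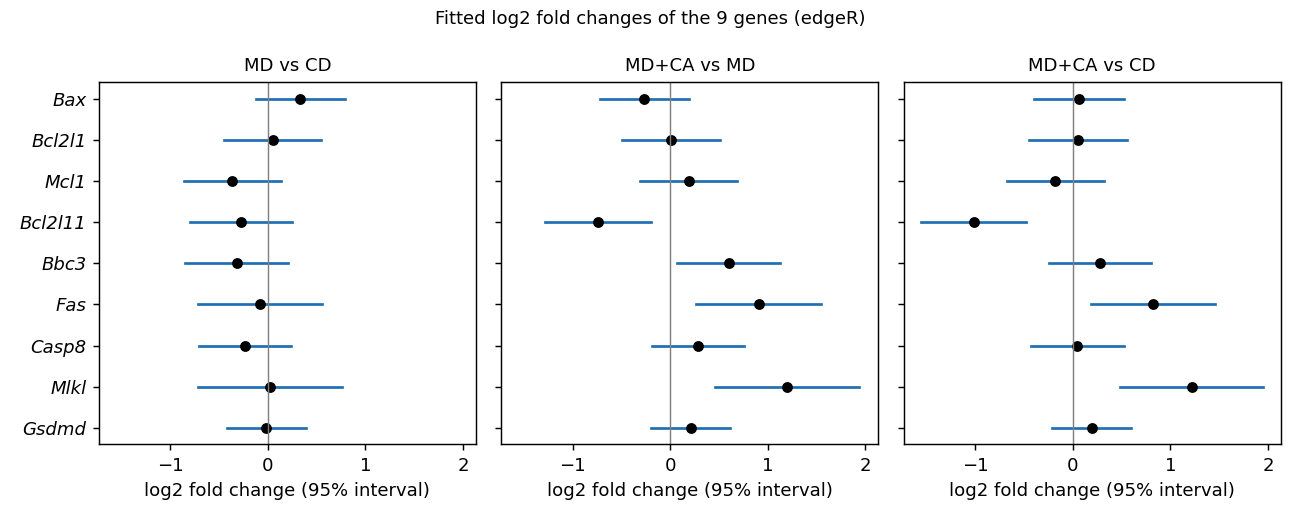
Fitted log2 fold change (point) with its 95% interval (line) for each of the 9 genes in the 3 comparisons. In MD vs CD every interval spans 0, in MD+CA vs MD those of Bcl2l11, Bbc3, Fas and Mlkl do not, and in MD+CA vs CD those of Bcl2l11, Fas and Mlkl do not. The intervals are not corrected for the number of genes.

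Levels between genes were compared in deposited TPM, which allow for transcript length. Over the 12 libraries the median was 32.0 TPM for Mcl1, 31.5 TPM for Gsdmd, 30.5 TPM for Bax, 24.9 TPM for Fas and 18.2 TPM for Casp8. It was lower for Bbc3 at 9.56 TPM, Bcl2l1 at 6.40 TPM, Mlkl at 4.68 TPM and Bcl2l11 at 2.44 TPM. Every neighbouring pair in this order overlapped in range over the libraries. Bcl2l11 ranged from 0.743 to 4.10 TPM and Mlkl from 2.09 to 12.6 TPM, which rested on 22 to 120 and 25 to 262 reads per library. Mcl1 rested on 500 to 1829 reads, so its values carry the least counting error of the 9.

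Bax encodes a protein that opens pores in the outer mitochondrial membrane. Its CPM were 13.7, 19.3, 15.4 and 16.3 in CD replicates 1 to 4, 21.0, 22.0, 16.5 and 22.1 in MD, and 18.6, 18.9, 19.9 and 10.4 in MD+CA. In MD, 3 of 4 libraries lay above all CD libraries, and MD+CA replicate 4 was the lowest of the 12. The log2 fold change was 0.33 (SE 0.21, edgeR adjusted p = 0.386) in MD vs CD and -0.27 (SE 0.21, adjusted p = 0.472) in MD+CA vs MD. The 95% interval for MD vs CD ran from -0.12 to 0.79, so neither no difference nor a rise of over 1.5 times lay outside it.

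Bcl2l1 encodes BCL-xL, a guardian that binds BAX and the BH3-only proteins. Its CPM were 21.5, 13.5, 13.2 and 13.1 in CD, 14.6, 15.1, 16.6 and 17.3 in MD, and 23.1, 11.6, 12.8 and 16.4 in MD+CA. Replicate 1 was the highest library in both CD and MD+CA, and the group means lay close together, at 15.3 CPM in CD and 15.9 CPM in MD. The 95% interval of the log2 fold change was -0.45 to 0.55 in MD vs CD and -0.49 to 0.51 in MD+CA vs MD. The ratio of Bax to Bcl2l1 in TPM had means of 4.03 ± 1.12 (CD), 5.46 ± 1.33 (MD) and 4.43 ± 2.27 (MD+CA), each with its SD over 4 libraries, and the ranges of the 3 groups overlapped.

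Mcl1 encodes a short-lived guardian of mitochondria. Its CPM were 123.5, 103.3, 71.3 and 101.5 in CD, 86.8, 57.7, 78.9 and 86.8 in MD, and 106.6, 76.2, 63.3 and 107.1 in MD+CA. The 3 groups overlapped, and the lowest value was that of MD replicate 2, the library with the high mitochondrial share. The log2 fold change of Mcl1 in MD vs CD was -0.37 (SE 0.23, edgeR adjusted p = 0.382), the smallest adjusted p of the 9 genes in that comparison. It was 0.19 in MD+CA vs MD (95% interval -0.31 to 0.68).

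Bcl2l11 encodes BIM, a BH3-only protein that binds all guardians and can activate BAX. Because it had the lowest values in MD+CA among the 9 genes relative to CD, the RefSeq sequence (GRCm38.p6) before the first of its 2 annotated starts is shown, at chr2:128125788-128126037 on the + strand, 5′ to 3′, with the FOXO motif in capitals. FOXO transcription factors are known regulators of BIM.

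Bcl2l11: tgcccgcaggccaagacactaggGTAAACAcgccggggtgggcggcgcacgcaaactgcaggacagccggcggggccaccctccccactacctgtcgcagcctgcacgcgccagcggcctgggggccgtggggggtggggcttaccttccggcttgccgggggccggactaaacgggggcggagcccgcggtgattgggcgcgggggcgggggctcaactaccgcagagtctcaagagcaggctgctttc

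In this stretch of 250 bases the FOXO letters, GTAAACA on either strand, begin at -227 from the start, and 3.17% of 32851 RefSeq promoter windows of the same length hold them. The second Bcl2l11 window holds no FOXO match, and neither window holds any of the other 6 motifs searched. A FOXO match also begins at -167 in the second window of Bbc3, the other BH3-only gene of the 9. The Bbc3 log2 fold change in MD+CA vs MD was positive, at 0.60. The matches describe letters and not binding.

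The Bcl2l11 CPM were 8.11, 6.99, 9.57 and 7.58 in CD, 5.82, 5.80, 7.51 and 7.48 in MD, and 3.86, 6.06, 2.78 and 3.11 in MD+CA. All 4 MD+CA libraries lay below all CD libraries, which held in this direction for 2.92% of genes, and 3 of 4 lay below all MD libraries. The mean CPM with SD over 4 libraries was 8.06 ± 1.1 for CD, 6.65 ± 0.97 for MD and 3.95 ± 1.47 for MD+CA. On the log2 scale the difference was -1.02 (SE 0.25, edgeR adjusted p = 0.0841) in MD+CA vs CD, -0.74 (SE 0.25, adjusted p = 0.106) in MD+CA vs MD and -0.28 (SE 0.24, adjusted p = 0.542) in MD vs CD. The value in MD+CA vs CD passed with DESeq2 (adjusted p = 0.0191) and without MD+CA replicate 2 (log2 fold change -1.30, edgeR adjusted p = 0.0492). Over the leave-outs of single libraries its adjusted p lay between 0.0492 and 0.207.

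Bbc3 encodes PUMA, a BH3-only protein best known as a target of p53. Its CPM were 12.4, 12.5, 10.0 and 10.7 in CD, 12.3, 6.72, 11.1 and 6.29 in MD, and 16.9, 9.33, 14.8 and 14.4 in MD+CA. In CPM, MD fell into a higher and a lower pair of libraries, and 3 of 4 MD+CA libraries lay above all of MD. In TPM all MD libraries, at 3.97 to 7.63, lay below all of CD, at 8.63 to 12.2, and all of MD+CA, at 9.54 to 13.3. The Bbc3 log2 fold change was 0.60 (SE 0.25, edgeR adjusted p = 0.164) in MD+CA vs MD and 0.28 (SE 0.25, adjusted p = 0.822) in MD+CA vs CD. In MD vs CD it was -0.32 (edgeR adjusted p = 0.474). With an offset for average transcript length it was 0.85 in MD+CA vs MD (edgeR adjusted p = 0.0739) and -0.74 in MD vs CD (adjusted p = 0.153). The BH3-only pair thus had values of opposite sign in both comparisons with MD+CA, and the difference between the genes was not tested.

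Fas encodes the death receptor through which T and NK cells can kill hepatocytes, and it is also a known p53 target. Its RefSeq sequence before the start, at chr19:34290409-34290658 on the + strand of GRCm38.p6, is shown because its difference between MD+CA and MD was the second in size among the 9 genes. The capitals mark, from 5′ to 3′, an AP-1 motif, an E-box and a GAS motif, an element of interferon-responsive genes.

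Fas: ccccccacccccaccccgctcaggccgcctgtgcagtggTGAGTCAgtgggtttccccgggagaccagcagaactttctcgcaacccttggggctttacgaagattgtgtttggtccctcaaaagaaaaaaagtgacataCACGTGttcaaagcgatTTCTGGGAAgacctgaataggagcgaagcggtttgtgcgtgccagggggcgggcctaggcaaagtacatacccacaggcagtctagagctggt

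The AP-1 letters, TGANTCA, begin at -211, the E-box letters, CACGTG, at -110 and the GAS letters, TTCNNNGAA, at -93 from the start. These were searched on both strands and occur in 6.75%, 6.02% and 7.02% of RefSeq windows of the same length. The matches describe letters and not binding.

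The Fas CPM were 17.3, 26.0, 39.3 and 19.8 in CD, 18.6, 20.3, 31.8 and 25.9 in MD, and 27.6, 55.7, 62.3 and 35.5 in MD+CA. In MD+CA, 3 of 4 libraries lay above all MD libraries, and 2 of 4 lay above all CD libraries. Mean CPM was 25.6 ± 9.8 for CD, 24.1 ± 6.0 for MD and 45.2 ± 16.4 for MD+CA (SD, n = 4). The fitted log2 fold change was 0.91 (SE 0.30, edgeR adjusted p = 0.0982) in MD+CA vs MD, 0.82 (SE 0.30, adjusted p = 0.279) in MD+CA vs CD and -0.08 (SE 0.30, adjusted p = 0.899) in MD vs CD. Fas passed in MD+CA vs MD with DESeq2 (adjusted p = 0.0464), without the low-count filter (edgeR adjusted p = 0.0355) and without MD+CA replicate 1 (log2 fold change 1.08, edgeR adjusted p = 0.0474). Without both replicates 2 of MD and MD+CA it was 0.71 (edgeR adjusted p = 0.366). Over the leave-outs of single libraries its adjusted p lay between 0.0474 and 0.239.

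Casp8 encodes the protease that FAS recruits and that also restrains necroptosis. Its CPM were 33.8, 39.2, 43.4 and 33.4 in CD, 28.9, 26.3, 35.5 and 36.6 in MD, and 24.5, 54.3, 37.5 and 38.5 in MD+CA. MD+CA held both the lowest and the highest of the 12 values, so its spread, 12.2 CPM (SD, n = 4), was the widest of the 3 groups. The 95% interval of the log2 fold change was -0.71 to 0.24 in MD vs CD, -0.19 to 0.75 in MD+CA vs MD and -0.42 to 0.52 in MD+CA vs CD.

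Mlkl encodes the executioner of necroptosis, a gene known to be induced by interferons. Its difference between MD+CA and both other groups was the largest of the 9 genes, and the RefSeq sequence before its start, at chr8:111338206-111338455 on the - strand of GRCm38.p6, is shown for comparison with that of Fas. It has no capitals, because none of the 7 motifs searched is in this window: GAS, the ISRE core (2.98% of windows), FOXO, AP-1, E-box, NF-kB (7.25%) and the p53 half-site (7.13%).

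Mlkl: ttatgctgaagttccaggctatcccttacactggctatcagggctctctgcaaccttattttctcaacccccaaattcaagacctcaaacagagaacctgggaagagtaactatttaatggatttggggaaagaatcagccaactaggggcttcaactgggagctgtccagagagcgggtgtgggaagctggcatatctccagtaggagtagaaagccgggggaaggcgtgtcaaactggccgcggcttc

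The absence of these letters says nothing of what binds elsewhere at the gene.

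The Mlkl CPM were 5.40, 8.91, 5.10 and 5.01 in CD, 7.43, 2.55, 5.93 and 8.60 in MD, and 8.82, 21.4, 12.0 and 14.2 in MD+CA. All 4 MD+CA libraries lay above all MD libraries in CPM, which held in this direction for 4.99% of genes, and 3 of 4 lay above all CD libraries. In TPM the MD+CA libraries, at 4.70 to 12.6, overlapped those of MD, at 2.09 to 4.91. Mean CPM was 6.11 ± 1.88 for CD, 6.13 ± 2.62 for MD and 14.1 ± 5.4 for MD+CA (SD, n = 4). Fitted log2 fold changes were 1.20 (SE 0.34, edgeR adjusted p = 0.0686) in MD+CA vs MD, 1.22 (SE 0.35, adjusted p = 0.134) in MD+CA vs CD and 0.02 (SE 0.35, adjusted p = 0.979) in MD vs CD. The 95% interval for MD vs CD, -0.72 to 0.76, still allows a change of over 1.5 times in either direction. Mlkl passed in MD+CA vs MD with DESeq2 (adjusted p = 0.0166), without the low-count filter (edgeR adjusted p = 0.0126) and without MD+CA replicate 1 (log2 fold change 1.37, edgeR adjusted p = 0.0404). Without MD+CA replicate 2, which had the highest value, the log2 fold change was 0.92 (edgeR adjusted p = 0.192), and without both that library and MD replicate 2, which had the lowest, it was 0.67 (adjusted p = 0.292). Over the leave-outs of single libraries the adjusted p in MD+CA vs MD lay between 0.0404 and 0.192.

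Gsdmd encodes gasdermin D, whose cut form makes the pores of pyroptosis. Its CPM were 42.3, 37.4, 29.2 and 34.5 in CD, 42.5, 41.5, 28.4 and 29.6 in MD, and 40.1, 45.7, 43.0 and 35.3 in MD+CA. The 3 groups overlapped, with 2 of 4 MD+CA libraries above all others. Its log2 fold change was -0.01 (95% interval -0.42 to 0.39) in MD vs CD, 0.21 (-0.20 to 0.62) in MD+CA vs MD and 0.19 (-0.21 to 0.60) in MD+CA vs CD. As a share of the Gsdmd TPM, the Mlkl TPM came to 12.8 ± 2.5% (CD), 14.8 ± 6.4% (MD) and 23.5 ± 7.6% (MD+CA), each with its SD over 4 libraries and with overlapping ranges.

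Markers of other cells differed in level in MD+CA as well. The summed level of 18 Kupffer cell and macrophage markers was 518 to 963 CPM in MD+CA, 232 to 390 CPM in MD and 291 to 344 CPM in CD. Of the 16 tested, 6 rose in MD+CA vs MD (Cd5l, Marco, Vsig4, C1qa, Csf1r and Ctss), 15 of 16 had values above 0, and no marker of the list was at 0 in all libraries. Interferon-stimulated genes summed to 819 to 2237 CPM in MD+CA, 610 to 807 CPM in MD and 521 to 753 CPM in CD, and 5 of 24 rose in MD+CA vs MD (Oasl1, Cmpk2, Irgm1 and Irgm2 among them). Of all genes tested, 2.71% passed in MD+CA vs MD in either direction, the share beside which the counts of both lists stand. T and NK cell markers summed to 8.23 to 20.4 CPM in MD+CA and 2.79 to 7.23 CPM in MD, with 3 of 12 tested and 0 passing with edgeR. For these 3 sums the groups did not overlap between MD+CA and either other group (exact two-sided permutation p = 0.0286, the smallest that 4 against 4 libraries can give, and 0.12 after adjustment over 42 tests). The neutrophil marker Ly6g was at 0 in all libraries, and sums for neutrophils, B cells, endothelium and bile duct cells overlapped between MD+CA and MD. Stellate cell and fibroblast markers summed to 198 to 259 CPM in MD and 120 to 158 CPM in CD, without overlap (exact two-sided permutation p = 0.0286, adjusted p = 0.12), and to 111 to 211 CPM in MD+CA. All 9 of them had values above 0 in MD vs CD and 0 passed with edgeR. MD+CA replicate 2, with the highest Mlkl and Casp8 values, had the highest sums for macrophages, interferon-stimulated genes and T and NK cells. The part of these cells and genes in the Mlkl and Fas values was not tested.

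**Figure D3:**
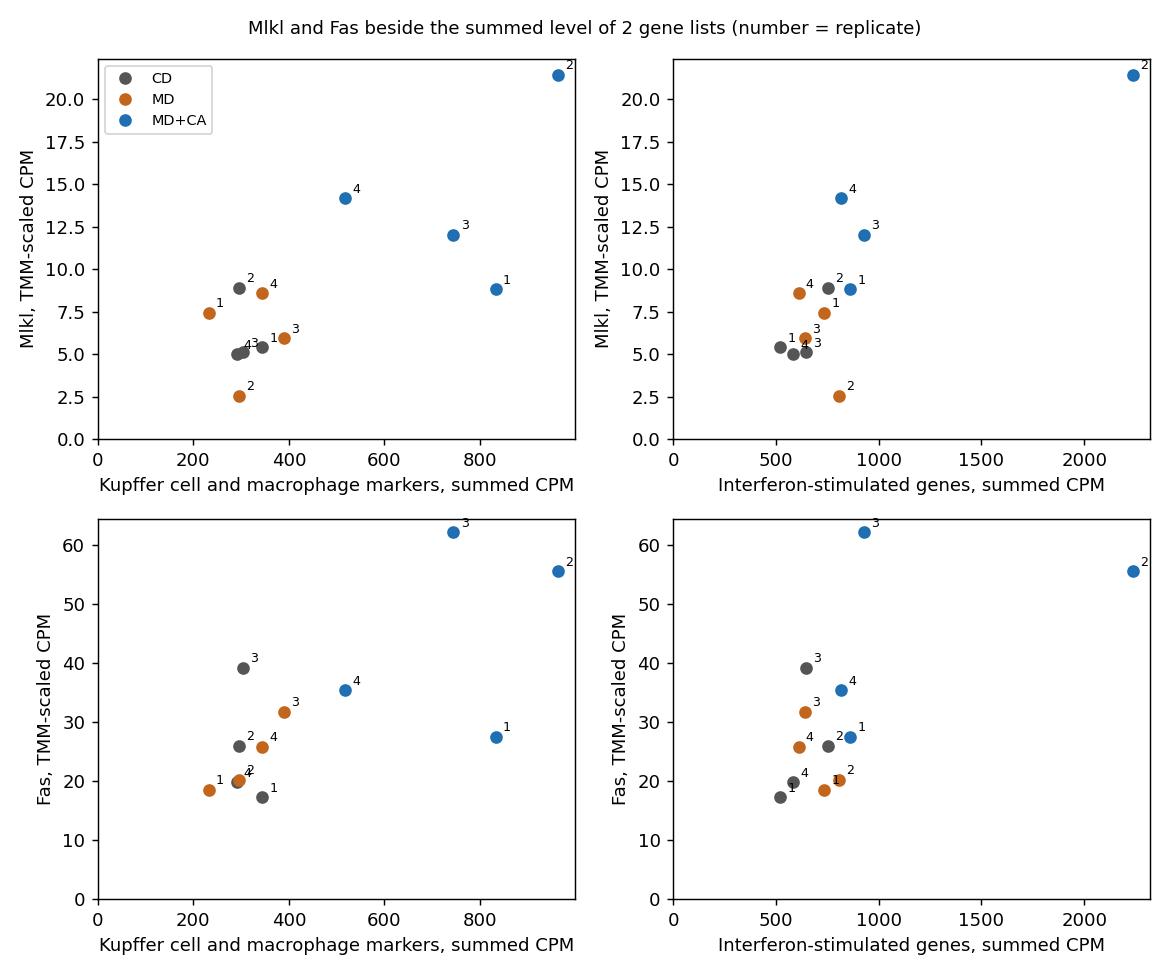
TMM-scaled CPM of Mlkl (top) and Fas (bottom) against the summed CPM of the macrophage markers (left) and the interferon-stimulated genes (right). Each point is 1 library numbered by replicate, and axes start at 0. The MD+CA libraries lie to the right in all panels, with replicate 2 at 2237 CPM of interferon-stimulated genes apart from the rest.

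Fragment length also moved with some of the 9 genes. The deposited tables subtract a fragment length allowance from each transcript's length, and this allowance was 221 to 258 bases in 6 libraries and 261 to 280 bases in the other 6. The first set held 2 CD, 3 MD and 1 MD+CA libraries and the second 2 CD, 1 MD and 3 MD+CA libraries, a division made after the values were seen. Fas had a median of 20.0 CPM (17.3 to 27.6) in the short set and 37.4 CPM (26.0 to 62.3) in the long set. Casp8 had medians of 31.2 CPM (24.5 to 36.6) and 38.8 CPM (35.5 to 54.3). Within the short set the MD+CA library had 27.6 CPM of Fas against 18.6 to 25.9 in MD, and within the long set MD+CA had 35.5 to 62.3 CPM against 31.8 in the 1 MD library. For Mlkl the corresponding values were 8.82 against 2.55 to 8.60 CPM and 12.0 to 21.4 against 5.93 CPM. For Bcl2l11 they were 3.86 against 5.80 to 7.48 CPM and 2.78 to 6.06 against 7.51 CPM. Each of these comparisons within a set has 1 library on one side, and none was tested. With the allowance as a covariate, the MD+CA vs MD log2 fold change was 0.46 for Fas (edgeR adjusted p = 0.37), 0.83 for Mlkl (adjusted p = 0.272) and -0.85 for Bcl2l11 (adjusted p = 0.152).

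The wider cell death network was described from 9 lists with 99 genes besides the 9, of which 91 were tested. Jun rose in MD vs CD, the 1 of 91 that passed (0.088% of all genes did). Ddit3 rose in MD+CA vs MD, the 1 of 91 to do so, and 3 fell, Jun, Gadd45a and Btg2 (4 of 91, against 2.71% of all genes). For MD+CA vs CD, 0 of 91 passed with edgeR (0.528% of all genes did). DESeq2 called 5 of 91, all higher (Casp1, Cdkn1a, Ddit3, Eda2r and Zbp1), against 2.46% of all genes. There limma voom called 3 (Cdkn1a, Ddit3 and Zbp1), against 1.4%. At an unadjusted p under 0.05 with edgeR, 13 of 91 were higher and 5 lower in MD vs CD, where 10.5% and 9.4% of all genes were. There were 12 higher and 11 lower in MD+CA vs MD, against 11.6% of all genes in each direction, and 12 higher and 4 lower in MD+CA vs CD, against 6.16% and 4.37%. The list counts at this threshold given below are to be read against the same shares. The genes named below were mostly drawn from those with the smallest p of a list. Groups without overlap among them are therefore partly a matter of that choice. In MD vs CD, DESeq2 called 4 of 91 higher (Atf3, Btg2, Cycs and Jun) and 2 lower (Cflar among them), against 4.81% of all genes in either direction. There limma voom called Cycs and Jun, against 2.74%. For MD+CA vs MD, DESeq2 called 4 of 91 higher (Cdkn1a, Ddit3, Faim and Zbp1) and 5 lower (Atf3, Btg2, Foxo1, Gadd45a and Jun). This stands beside 9.29% of all genes called in either direction. There limma voom called Ddit3 and Pmaip1 higher and Foxo1 lower, against 2.99%.

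**Figure D4:**
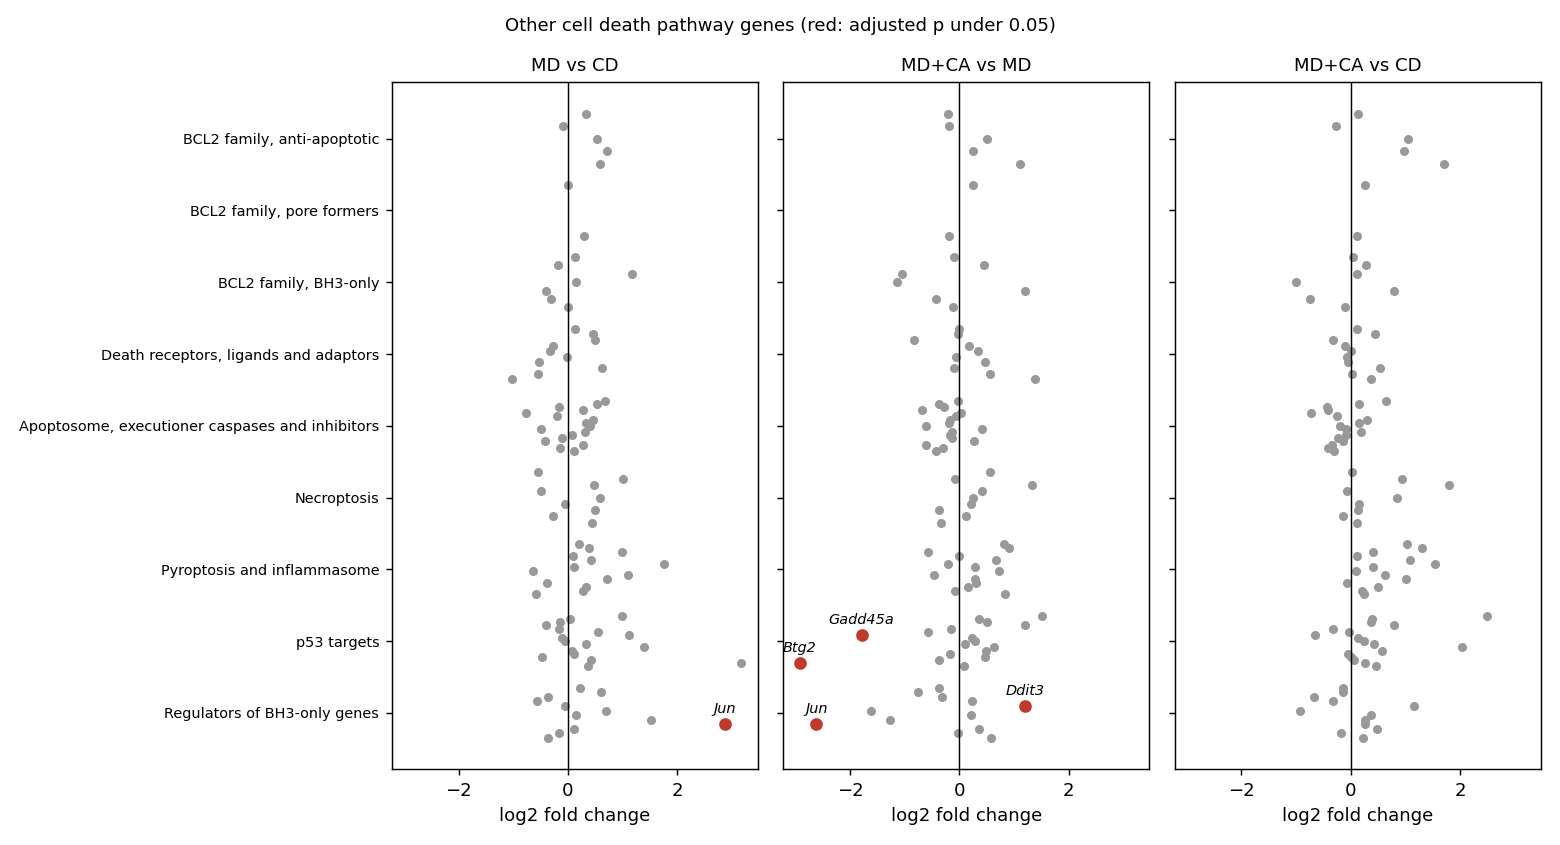
Fitted log2 fold changes of the tested genes of 9 lists, without the 9 genes described above, in the 3 comparisons. Each point is 1 gene, a gene of more than 1 list appears in each, and red points have an edgeR adjusted p under 0.05. Most points lie close to 0, and Jun lies above 0 in MD vs CD and below 0 in MD+CA vs MD, which share the MD libraries.

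Jun is an AP-1 subunit and an immediate early gene, taken here from the list of regulators of BH3-only genes. It had 12.4 to 42.3 CPM in CD, 235, 300, 181 and 50.5 CPM in MD, and 17.2 to 45.5 CPM in MD+CA. All MD libraries lay above all others, with replicate 4 close to the rest. Log2 fold changes were 2.88 (SE 0.49, edgeR adjusted p = 0.0469) in MD vs CD and -2.61 (SE 0.48, adjusted p = 0.0171) in MD+CA vs MD. The first call was lost on leaving out any 1 of the CD libraries, MD replicate 1 or 2, or MD+CA replicate 2, 3 or 4 (adjusted p 0.0111 to 0.227 over all 12 leave-outs), and the second held in all 12 (0.00369 to 0.0446). The first was also lost with the transcript length offset (edgeR adjusted p = 0.0688), and limma voom did not make the second. Both were lost with the fragment length allowance as a covariate (edgeR adjusted p = 0.125 and 0.0707) and without both replicates 2 of MD and MD+CA (0.0943 and 0.0648). Of 13 immediate early genes tested, 7 fell in MD+CA vs MD, Btg2 and Jun among them, where 1.64% of all genes fell. That list summed to 324 to 2005.7 CPM in MD, 156 to 473 CPM in CD and 154 to 286 CPM in MD+CA.

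Ddit3 encodes CHOP, a factor of the unfolded protein response that can raise BIM and death receptor transcription. Its CPM were 22.3 to 31.7 in CD, 19.0 to 30.2 in MD and 36.4, 58.4, 98.99 and 39.3 in MD+CA. MD+CA lay above MD without overlap, as for 4.99% of all genes. This gave a log2 fold change of 1.20 (SE 0.28, edgeR adjusted p = 0.0397) in MD+CA vs MD and 1.15 (adjusted p = 0.0789) in MD+CA vs CD. The call in MD+CA vs MD was lost in 9 of the 12 leave-outs (adjusted p 0.0260 to 0.115), all but those of MD replicate 3 and MD+CA replicates 1 and 4. Gadd45a, a DNA damage-inducible gene, went from 35.5 ± 12.5 CPM in MD to 10.2 ± 6.5 CPM in MD+CA (SD, n = 4, log2 fold change -1.79, edgeR adjusted p = 0.0328). Btg2, an antiproliferative p53 target, went from 76.9 ± 55.5 to 10.2 ± 6.7 CPM (SD, n = 4, log2 fold change -2.92, edgeR adjusted p = 0.0304). Both calls were lost without MD replicate 1 or 2 or MD+CA replicate 2, 3 or 4, with adjusted p of up to 0.0985 for Gadd45a and 0.0855 for Btg2. Neither gene was called by limma voom in MD+CA vs MD. With the fragment length covariate the MD+CA vs MD calls of Ddit3, Gadd45a and Btg2 were lost (edgeR adjusted p = 0.144, 0.0687 and 0.0975), as they were with only the MD and MD+CA libraries (0.0995, 0.0660 and 0.0519) and without both replicates 2 (0.154, 0.168 and 0.168). The Ddit3 call was also lost with the transcript length offset (edgeR adjusted p = 0.0559).

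The p53 targets as a list were mixed in direction. Of 17 tested besides the 9 genes, 2 fell in MD+CA vs MD and 0 rose with edgeR, 4 were higher and 2 lower at an unadjusted p under 0.05 (against 11.6% of all genes each), and 11 of 17 had a positive value with a median of 0.23. Cdkn1a, which encodes the cell cycle inhibitor p21, had 0.101 to 1.32 CPM in CD, 0.713 to 3.10 CPM in MD and 2.25 to 7.22 CPM in MD+CA. The MD+CA vs CD log2 fold change of Cdkn1a was 2.49 (SE 0.56, edgeR adjusted p = 0.0586), with no overlap. The Cdkn1a level in CD was low, so this value rests on few reads in that group. Pmaip1, which encodes the BH3-only protein NOXA, had a log2 fold change of 1.20 (SE 0.39, edgeR adjusted p = 0.0958) in MD+CA vs MD. Eda2r, a receptor gene induced by p53, had 2.03 (SE 0.56, adjusted p = 0.126) in MD+CA vs CD. Its level was low, at 0.0675 to 0.626 CPM in CD and 1.01 to 1.64 CPM in MD+CA, so the value rests on few reads.

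Among partners of Fas and Casp8, none of 10 tested passed with edgeR in any comparison. At an unadjusted p under 0.05, 1 was higher and 3 lower in MD vs CD, 3 higher in MD+CA vs MD and 1 higher in MD+CA vs CD, where the shares of all genes were 10.5% and 9.4%, 11.6% and 6.16%. Cflar, whose product FLIP blocks caspase-8 at the receptor, had 175 to 259 CPM in CD, 127 to 155 CPM in MD and 168 to 234 CPM in MD+CA. All MD libraries were below all others for Cflar, and 13.1% of all genes were apart in either direction in MD vs CD. The Cflar log2 fold change in that comparison was -0.54 (SE 0.19, edgeR adjusted p = 0.161). Faim, an inhibitor of FAS-induced apoptosis, had 22.6 ± 11.3 CPM in MD and 59.0 ± 22.6 CPM in MD+CA (SD, n = 4, log2 fold change 1.38, edgeR adjusted p = 0.0697). Fasl and Tnf, the ligands, were too low to test, with at most 5 and 15 reads in a library.

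The necroptosis list besides Mlkl had 9 tested genes, 0 of which passed with edgeR in any comparison, with 2 higher (against 11.6% of all genes) and 0 lower at an unadjusted p under 0.05 in MD+CA vs MD. These were Zbp1 and Ripk1. At the same threshold 2 were lower in MD vs CD (against 9.4%) and 1 was higher in MD+CA vs CD (against 6.16%). Zbp1, an interferon-induced sensor that can start necroptosis, had 24.3, 83.9, 36.3 and 14.3 CPM in MD+CA, 13.7 to 17.95 CPM in MD and 7.16 to 16.5 CPM in CD. Replicate 2 of MD+CA was again the highest, as for Mlkl, and replicate 4 lay within the range of MD. Zbp1 had a log2 fold change of 1.32 (SE 0.42, edgeR adjusted p = 0.0898) in MD+CA vs MD and 1.80 (SE 0.43, adjusted p = 0.0699) in MD+CA vs CD. Ripk1 had -0.55 (adjusted p = 0.184) in MD vs CD and 0.57 (adjusted p = 0.134) in MD+CA vs MD.

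In the pyroptosis list, 0 of 14 genes tested besides Gsdmd passed with edgeR in any comparison, and 4 were higher (against 6.16% of all genes) and 0 lower at an unadjusted p under 0.05 in MD+CA vs CD. There were 3 higher in MD vs CD (against 10.5%) and 2 higher in MD+CA vs MD (against 11.6%) at that threshold. Casp1, the inflammatory caspase that cuts gasdermin D, had 0.946 to 2.33 CPM in CD, 1.19 to 3.05 CPM in MD and 3.29 to 5.32 CPM in MD+CA. No MD+CA library overlapped the others, and 4.99% of all genes were apart and higher in MD+CA vs MD. The Casp1 log2 fold change was 1.30 (SE 0.36, edgeR adjusted p = 0.13) in MD+CA vs CD and 0.91 (SE 0.36, adjusted p = 0.146) in MD+CA vs MD. Nlrc4, an inflammasome sensor, had 1.75 (SE 0.60, adjusted p = 0.145) in MD vs CD. Its level was low, at 0.278 to 0.626 CPM in CD and 0.911, 3.26, 1.28 and 1.03 CPM in MD replicates 1 to 4.

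Of 17 genes of the apoptosome, executioner caspases and their inhibitors, 0 passed with edgeR, and 14 genes of the 3 BCL2 family lists gave 0 as well. At an unadjusted p under 0.05 the executioner list had 2 higher and 1 lower in MD vs CD (against 10.5% and 9.4% of all genes), 3 lower in MD+CA vs MD (against 11.6%) and 2 lower in MD+CA vs CD (against 4.37%). In the BCL2 lists the same threshold gave 1 higher in MD vs CD (Bik), 1 higher (Pmaip1) and 2 lower (Bik and Bmf) in MD+CA vs MD, and 2 higher (Bcl2a1b and Bcl2a1d) and 1 lower (Bnip3) in MD+CA vs CD. Cycs, which encodes cytochrome c, had 66.2 to 83.8 CPM in CD, 96.8 to 114 CPM in MD and 73.9 to 94.6 CPM in MD+CA, with no overlap between MD and either other group. Its log2 fold change was 0.53 (SE 0.17, edgeR adjusted p = 0.131) in MD vs CD. Bik, a BH3-only gene, had 2.55 ± 0.61 CPM in MD against 1.11 ± 0.31 CPM in CD and 1.23 ± 0.11 CPM in MD+CA (SD, n = 4), also without overlap. In MD vs CD, 13.1% of all genes were apart in either direction. The guardians Bcl2a1b and Bcl2a1d are near-identical copies whose reads the quantification divides, so their values, 0.97 and 1.70 in MD+CA vs CD on the log2 scale, are uncertain singly.

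Gene sums can hide shifts between transcripts, so the share of each gene's TPM that fell to its main transcript was compared too. The smallest p that 4 against 4 libraries can give is 0.0286, so few or no tests could pass after adjustment over 27. The adjusted values therefore neither show nor exclude a shift. Of the 27 exact permutation tests, 9 genes in 3 comparisons, none passed after adjustment and 1 had an unadjusted p under 0.05. This was Bcl2l11-204, the longest Bcl2l11 transcript at 5036 bases, with 79.0 ± 10.2% in MD+CA, 74.4 ± 16.8% in MD and 50.3 ± 7.2% in CD (SD, n = 4, exact permutation p = 0.0286 for MD+CA vs CD, adjusted p = 0.771). Mcl1-201 held 100% of Mcl1 in every library, so its tests could show no difference. Transcripts annotated as retained introns held a large part of 2 genes: Bbc3-203 had 17.2 to 81.7% of Bbc3 and Gsdmd-204 had 31.9 to 57.1% of Gsdmd. The TPM and CPM of Bbc3 and Gsdmd therefore include RNA that is not annotated as coding. Transcripts without a defined coding sequence also held part of other genes. Mlkl-203 had 0 to 59.7% of Mlkl TPM and Bcl2l11-205 had 0 to 41.3% of Bcl2l11 TPM, each on at most 10 reads in a library. Mean shares were 20.3% (CD), 25.9% (MD) and 9.82% (MD+CA) for Mlkl-203, and 23.3%, 8.26% and 10.4% for Bcl2l11-205.

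For Casp8 the shares fell into separate sets of libraries. Transcript Casp8-203, of 1628 bases, was listed at 0 reads in 6 libraries and had 202 to 503 reads, 56.5 to 79.9% of Casp8 TPM, in the other 6. The 6 libraries at 0 had an allowance for fragment length of 221 to 258 bases, and the 6 with reads had 261 to 280 bases. Both sets held libraries of all 3 groups. Casp8-202 took 84.7 to 95.6% in the first set. In the GENCODE M21 transcripts, 91.1% of the 31-base words of Casp8-203 also occur in Casp8-202, so most reads cannot tell them apart. Nothing about Casp8 transcript use between the diets is read from these shares.

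**Figure D5:**
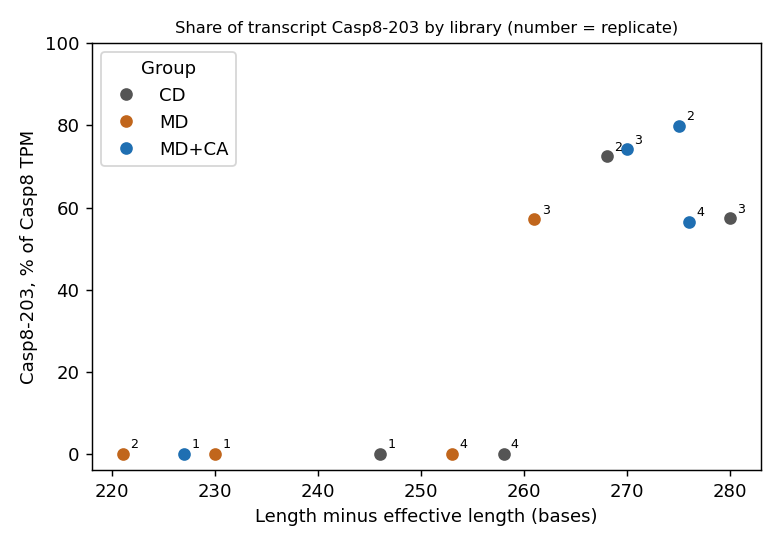
Share of Casp8 TPM assigned to transcript Casp8-203 (vertical axis, percent) against the fragment length allowance of the library in bases (horizontal axis). Each point is 1 library numbered by replicate and coloured by group. Shares are 0 in the 6 libraries up to 258 bases and 56.5 to 79.9% in the 6 from 261 bases.

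For the 2 genes with the smallest p, Bcl2l11 and Mlkl, the 3 protein-coding genes with the most similar pattern were found by Pearson r of log2 CPM over the 12 libraries among 10668 genes. Among those nearest to Bcl2l11 were Acot3 (r = 0.892) and N4bp2l1 (r = 0.883). Those nearest to Mlkl were Rap2b (r = 0.915), Ctss (r = 0.897) and Parp11 (r = 0.885). Ctss, a lysosomal protease gene on the macrophage marker list, had 35.5 to 49.9 CPM in CD, 23.8 to 50.2 CPM in MD and 64.7 to 140 CPM in MD+CA. These r values describe 12 libraries that share groups and depth, and carry no p.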

How the data were processed

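Poly(A) RNA of snap-frozen liver was sequenced in 12 libraries, 4 per group. The authors deposited a table per library with estimated counts per transcript (Salmon 1.10.3 after fastp, build GRCm39, per the submitters' processing notes) and TPM scaled within each library, per the file headers. The sources used here do not give the annotation release, the options or the strand setting. Estimated counts of 147556 transcripts were summed over 56065 genes and rounded. edgeR 4.0.16 kept 13631 genes (filterByExpr, minimum count 10), applied TMM scaling and, over all 12 libraries, fitted 1 quasi-likelihood model of 3 group means (9 residual degrees of freedom). P-values were adjusted by Benjamini-Hochberg across the 13631 genes, and 0.05 was the threshold. Values of single libraries were compared with exact two-sided permutation tests, whose smallest p is 0.0286. DESeq2 1.42.0, limma 3.58.1 (voom), R 4.3.3, Python 3.11.15, numpy 2.4.6, pandas 2.3.3, scipy 1.17.1 and matplotlib 3.10.9 were used, and the steps were tested on simulated data.

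Alternatives were RLE and upper-quartile scaling, DESeq2, voom with sample weights, an offset for average transcript length, no low-count filter, a replicate number block, only the groups compared, leaving out mitochondrially encoded genes, the fragment length allowance as a covariate, and leaving out each library. Leaving out MD replicate 2 and MD+CA replicate 2 together was added after seeing the data. The 9 genes and all lists were chosen with earlier results of these data known. Named are the 9 genes and, of the pathway lists, genes drawn from those that passed or were among the 2 with the smallest p of a list and comparison. The marker genes Alb and Ly6g, and genes that a tool or list called, were named after their values were seen. For the most similar patterns, genes needed a mean log2 CPM of at least 1. Of 217 list genes, 216 were found. Ddit3 is listed under 2 gene IDs, and the ID with reads was used. Replicates differed by more than sampling noise, so all were counted.

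RefSeq promoter windows (GRCm38.p6) were matched by symbol for 8 of the 9 genes. Other genomic coordinates were not used, since the files' build differs. Results for a few list genes and pattern neighbours are not reported here.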

Additional observations from a re-analysis of the deposited data

Results flagged for a closer look

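In 27 groups of 4 libraries (9 genes, 3 groups), 3 had a highest or lowest library whose gap to the nearest other value as a share of the group's range was past Dixon's 95% limit for 4 values, which chance passes in about 1 in 20 groups. Bcl2l1 in CD had 21.5 CPM in replicate 1, against 13.1 to 13.5 CPM in the other 3 libraries. Mlkl in CD had 8.91 CPM in replicate 2, against 5.01 to 5.40 CPM, and this is the library that overlapped the lowest MD+CA value of 8.82 CPM. Bax in MD+CA had 10.4 CPM in replicate 4, against 18.6 to 19.9 CPM.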

How the results depend on the processing

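The count of all genes past the threshold, 12 in MD vs CD, 369 in MD+CA vs MD and 72 in MD+CA vs CD, was 629, 1214 and 334 with DESeq2, 374, 408 and 191 with limma voom, 481, 1017 and 390 without the low-count filter, 2, 191 and 34 with the transcript length offset, 35, 99 and 46 with only the 2 compared groups, 6, 142 and 164 with the fragment length covariate, and 2, 49 and 28 without both MD replicate 2 and MD+CA replicate 2. Leaving out 1 library gave 0 to 26, 109 to 963 and 17 to 169. Of the 9 genes, 0 passed in MD vs CD in any setting. In MD+CA vs MD, 2 passed (Fas and Mlkl) with DESeq2 and without the filter, and 0 to 2 on leaving out 1 library. In MD+CA vs CD, 2 passed (Bcl2l11 and Mlkl) with DESeq2, 1 (Mlkl) with limma voom and without the filter, 1 (Bcl2l11) without both replicates 2, and 0 to 1 on leaving out 1 library. The median of the 9 genes lay between -0.252 and -0.0768, 0.157 and 0.289, and 0.0632 and 0.260 over the leave-outs. The cause of these changes was not tested.

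As to pairing by replicate number, correlations of deviations from group means were -0.08 to 0.35 in 12 same-numbered pairs, 8 of them over 0.1, and -0.40 to 0.31 in 36 others. A library correlated best with its own number in 16 of 24 checks. Not every pair was over 0.1 and no label ties a number to a shared mouse or batch, so the libraries were taken to share only a number, and the best matches are a hint from the data. With the replicate block, 12, 664 and 154 genes passed, and of the 9 genes 1 (Fas in MD+CA vs MD, edgeR adjusted p = 0.0275). Of the other named genes, the block gave adjusted p = 0.0765 for Jun in MD vs CD, and 0.0426 for Cdkn1a, 0.0483 for Ddit3 and 0.0454 for Zbp1 in MD+CA vs CD.

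The sign of log2 fold changes that passed in no setting turned as follows. In MD vs CD, Bcl2l1 gave -0.159 with the offset and -0.135 with the covariate, Fas 0.0529 with limma voom and 0.399 with the covariate, Casp8 0.0810 with the covariate, Mlkl -0.00487 without the filter, Gsdmd 0.0555 with upper-quartile scaling, and Bak1 -0.00295 with RLE, -0.00670 with DESeq2, -0.0181 without the filter, -0.0138 with the offset and -0.00784 without mitochondrial genes. In MD+CA vs MD, Bcl2l1 gave -0.0198 with upper-quartile scaling, -0.134 with limma voom and -0.0482 with the block, Casp8 -0.0508 with the covariate, Bak1 -0.271 with the covariate and Bok 0.332 with the offset. With limma voom, Bcl2l1 gave -0.0507 and Bok -0.000309 in MD+CA vs CD. Leaving out 1 library, or both replicates 2, gave -0.0224 to 0.250 for Bcl2l1, -0.252 to 0.197 for Fas, -0.183 to 0.268 for Mlkl, -0.114 to 0.0759 for Gsdmd and -0.285 to 0.196 for Bak1 in MD vs CD. It gave -0.221 to 0.138 for Bcl2l1, -0.00753 to 0.450 for Casp8 and -0.0595 to 0.555 for Bak1 in MD+CA vs MD. It gave -0.0334 to 0.239 for Bax, -0.175 to 0.260 for Bcl2l1, -0.160 to 0.215 for Casp8, -0.0603 to 0.486 for Bak1 and -0.0939 to 0.289 for Bok in MD+CA vs CD. Of the 9 genes, Bcl2l11 and Mlkl had the lowest counts in a single library, 22 and 25 reads.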
